A study of Mus musculus with 4 samples.

Results

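Imprinted genes are expressed from the maternal or the paternal copy only, and 10 of them that govern fetal growth were followed in whole E18.5 mouse pancreas after loss of Rest. They were taken by symbol from the 24391 genes of the count table as Igf2, Igf2r, Grb10, Dlk1, Mest, Peg3, Plagl1, Peg10, H19 and Meg3, and all 10 were among the 14550 genes tested. The control embryos carried Pdx1Cre with wild-type Rest (RESTwt), and the Rest pKO embryos carried Pdx1Cre with RESTLoxP/LoxP. Both were on a mixed background with C57BL/6. Each genotype is represented by 2 libraries. Pdx1-Cre acts in the pancreatic epithelium and leaves mesenchyme, vessels and blood unrecombined, and the floxed allele loses exon 4 alone. Whole organs were sequenced, so fewer cells of a type and less RNA per cell cannot be told apart.

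Igf2 encodes insulin-like growth factor 2, the main growth factor of the fetus. Igf2r encodes the receptor that carries this factor to the lysosome for degradation, and Grb10 an adapter that restrains signalling from the insulin and IGF1 receptors. In mouse tissues outside the brain, Igf2, Dlk1, Mest, Peg3, Plagl1 and Peg10 are read from the paternal copy and H19, Meg3, Igf2r and Grb10 from the maternal one, and in general the paternal set favours growth while the maternal set limits it. Igf2 and H19 are neighbours that answer to one imprinting control region, as are Dlk1 and Meg3. The counts do not separate the parental alleles, so loss or gain of imprinting was not measured.

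Library totals ranged from 16936759 to 24134100 counts, and the 10 genes together took 0.907% and 0.847% of the counts in controls 1 and 2 and 0.805% and 0.645% in Rest pKO 1 and 2. Counting noise at this depth was small, since the lowest count of any of the 10 genes in any library was 2710, and the spread between embryos set the precision. Xist and Y-linked counts gave a female and a male in each genotype, control 1 and Rest pKO 2 being the females, so that the libraries of each genotype came from different embryos. Rest itself was read at 14.2 and 15.7 CPM (the count scaled to sequencing depth by TMM) for the controls against 12.1 and 9.16 CPM for Rest pKO, with a log2 fold change of −0.49 ± 0.23 (SE) that did not pass the test (adjusted p = 0.593, edgeR's quasi-likelihood test). As a check of the tissue, the 23 tested acinar genes summed to 406270 and 368274 CPM in controls 1 and 2. In Rest pKO 1 and 2 they summed to 391148 and 516626 CPM. They were thus highest in Rest pKO 2, where the 10 genes took the smallest part of the counts. The part of acinar RNA in that was not tested.

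The letters around some of the start sites are given first, because the experiment removes a DNA-binding repressor. RefSeq (GRCm38.p6) gave 15 windows, each running from 250 bases before to 50 after a start site, for 8 of the 10 genes. H19 and Peg10 had no window. The window of the first Meg3 start on chromosome 12 (chr12:109540746-109541045, plus strand) is shown because Meg3 had the largest difference between genotypes. The Peg3 window (chr7:6730370-6730669, minus strand) is the other one with the same cyclic AMP response element, and the Plagl1 (chr10:13090582-13090881, plus strand) and Igf2r (chr17:12769657-12769956, minus strand) windows hold an arm of RE1, the element bound by REST. Capitals mark the cyclic AMP response element, TGACGTCA, and the arms of RE1, CAGCACC and GGACAGC, on either strand.
Meg3: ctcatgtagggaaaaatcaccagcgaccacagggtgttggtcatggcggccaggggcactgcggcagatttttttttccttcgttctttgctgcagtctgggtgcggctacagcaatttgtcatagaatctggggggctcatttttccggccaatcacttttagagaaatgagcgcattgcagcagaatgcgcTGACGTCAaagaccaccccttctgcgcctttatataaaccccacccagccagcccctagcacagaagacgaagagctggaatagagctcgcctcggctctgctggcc
Peg3: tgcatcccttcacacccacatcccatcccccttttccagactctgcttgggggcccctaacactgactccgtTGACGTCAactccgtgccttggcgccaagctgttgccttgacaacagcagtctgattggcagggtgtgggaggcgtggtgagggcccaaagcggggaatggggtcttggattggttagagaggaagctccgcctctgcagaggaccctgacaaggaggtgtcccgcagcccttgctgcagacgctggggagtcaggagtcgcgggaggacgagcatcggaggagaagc
Plagl1: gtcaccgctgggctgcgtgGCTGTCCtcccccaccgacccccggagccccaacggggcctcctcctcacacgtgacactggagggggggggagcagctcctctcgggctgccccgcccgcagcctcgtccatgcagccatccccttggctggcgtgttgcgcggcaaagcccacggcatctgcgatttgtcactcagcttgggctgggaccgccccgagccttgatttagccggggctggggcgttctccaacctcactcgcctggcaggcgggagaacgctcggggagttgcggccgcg
Igf2r: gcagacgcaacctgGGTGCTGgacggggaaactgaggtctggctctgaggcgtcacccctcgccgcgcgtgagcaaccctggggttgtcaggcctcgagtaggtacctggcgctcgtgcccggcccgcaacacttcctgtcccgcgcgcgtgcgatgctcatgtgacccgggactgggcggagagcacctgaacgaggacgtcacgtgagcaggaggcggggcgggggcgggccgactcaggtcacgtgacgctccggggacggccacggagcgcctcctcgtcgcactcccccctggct
TGACGTCA was present in 2 of the 15 windows, starting 57 bases before the Meg3 start and 178 bases before the Peg3 start, against 1.79% of all 32851 windows. It reads the same on both strands. GGACAGC was found in 3 of the 15 windows, 1 each of Mest, Igf2 and Plagl1, against 6.56% of all windows, and CAGCACC in 1 window, that of Igf2r, against 7.14%. Both arms, which share the letters CAGC, did not occur together in any of the 15 windows. The windows held a median of 13 CpG, the dinucleotide that carries methylation at imprinted loci, against 7 over all windows. A window of 13 CpG stood at the 63.7th percentile, and single windows ran from 1 CpG (Meg3) to 45 (Grb10). These are matches of letters within 300 bases and not evidence of binding, which was not examined.

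All 10 genes were strongly expressed in the organ. Each lay above the 96th percentile of tested genes by mean CPM, H19 being 24th and Igf2 37th of the 14550. Levels of different genes were compared after division by annotated exon length, which gives CPM per kb. That length merges all annotated exons of a gene and comes from another annotation than the one used for counting. On that scale H19 was highest, at 1295, 899, 1139 and 1057 CPM per kb in controls 1 and 2 and Rest pKO 1 and 2. Igf2 followed with 231 to 306 and Mest with 149 to 185 CPM per kb, and the ranges of these 3 genes did not overlap. Dlk1 (57.7 to 99.3), Plagl1 (24.9 to 81.1), Grb10 (51.3 to 61.3) and Meg3 (30.9 to 62.1) overlapped in CPM per kb, so their order is not resolved. Peg3 (34.1 to 42.6), Igf2r (26.5 to 34.9) and Peg10 (20.4 to 24.6) were lowest, although Peg3 and Igf2r overlapped each other as well as Meg3 and Plagl1. Meg3 was above Mest by CPM in the controls and below it in Rest pKO, and per kb it was below Mest in every library, its annotated exons spanning 18089 bp, the most among the 10.

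**Figure D1:**
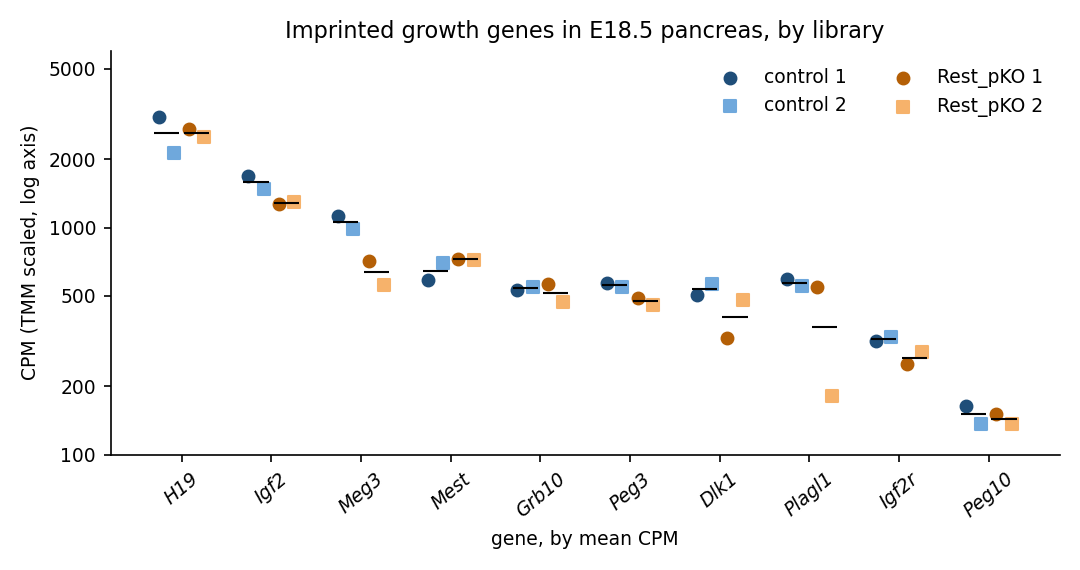
TMM-scaled CPM (log axis) of the 10 imprinted growth genes in the 4 libraries, ordered by mean CPM, with circles and squares for replicates 1 and 2, blue for control, orange for Rest pKO, and black lines for the genotype means. Meg3 lies lower in both Rest pKO libraries (715 and 560 CPM) than in both controls (1124 and 988 CPM), and Plagl1 is low in Rest pKO 2 alone (181 CPM).

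No imprinted growth gene passed the test between genotypes. At an adjusted p under 0.05, edgeR called 0 of the 10 genes, against 4 of all 14550 (0.0275%), and DESeq2 called 0 of the 10 against 102 of 14250 (0.716%). With sex as a term edgeR called 0 of the 10 against 247 of 14550 (1.70%). At an unadjusted p under 0.05, 1 gene was lower in Rest pKO, Meg3, against 5.61% of all genes, and 0 were higher, against 3.26%. In 6 of the 10 genes (Igf2, Dlk1, Meg3, Peg3, Plagl1 and Igf2r) each Rest pKO library was lower than each control, against 21.2% of all genes, and in 1 gene, Mest, they lay above, against 21.5%. H19, Grb10 and Peg10 overlapped. The median log2 fold change of the 10 genes was −0.26, beside −0.005 over all genes tested. Of the 6 genes read from the paternal copy 4 lay below, 1 above and 1 overlapped, with a median of −0.27, and of the 4 read from the maternal copy 2 lay below and 2 overlapped, with a median of −0.17.

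On average over each genotype, long transcripts read lower in Rest pKO than in control. Of the 10 genes, 9 are longer than the median tested gene (3716.5 bp of exon). Across the 13312 tested genes with an annotated length, log2 fold change and exon length had a Spearman correlation of −0.296, a description across genes of the same 4 libraries. After a lowess curve of this trend was removed in each library, the median of the 10 genes came to −0.077, and only Igf2 and Meg3 lay below in both Rest pKO libraries, against 18.9% of all genes. Mest and Grb10 then lay above, against 21.2%. The curve was uneven between libraries. It moved Grb10 from 562 to 563 CPM in Rest pKO 1 and from 470 to 532 CPM in Rest pKO 2. In controls 1 and 2 it moved Grb10 from 533 to 493 and from 547 to 508 CPM. The part of length in the differences was not tested beyond this fit.

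**Figure D2:**
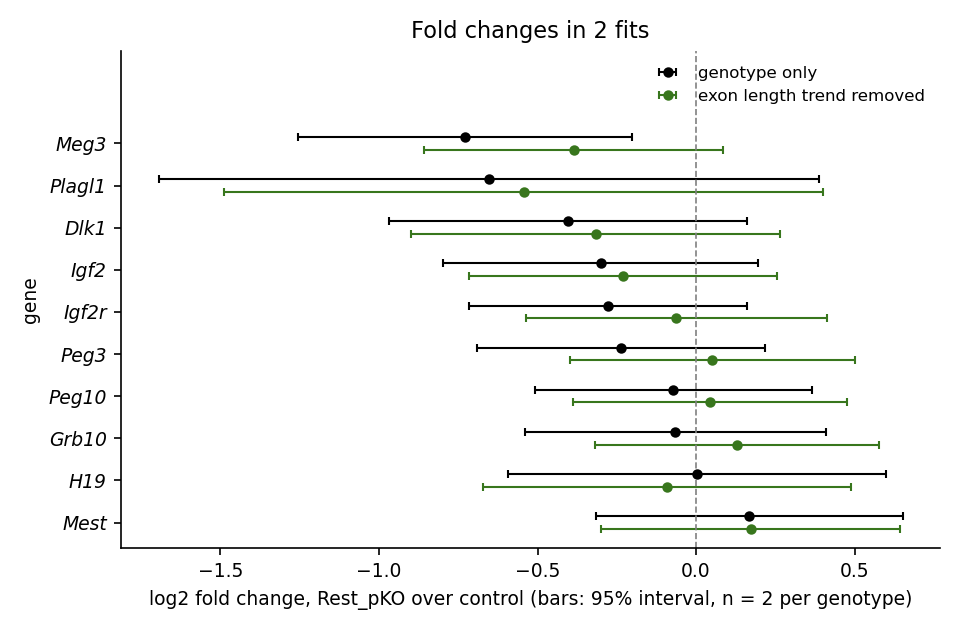
Log2 fold change of Rest pKO over control for each gene with its 95% interval (n = 2 libraries per genotype), from the fit of genotype alone (black) and after removal of the exon length trend (green). The interval of Meg3 excludes 0 in the first fit only, from −1.25 to −0.20 against −0.86 to 0.084, and all other intervals include 0.

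Igf2 and the genes that limit its action differed little. Igf2 was counted at 1683 and 1477 CPM for the controls against 1270 and 1295 CPM for Rest pKO. Both Rest pKO libraries were below both controls, and the fold was 0.812 (95% interval 0.576 to 1.15). The log2 fold change of −0.30 ± 0.21 (SE, adjusted p = 0.681 from edgeR) kept its sign without any one library. Igf2r (chromosome 17, 12875272 to 12962530, minus strand, mm9) read 317 and 329 CPM for the controls against 250 and 283 CPM for Rest pKO. These groups were also separated, with a log2 fold change of −0.28 ± 0.19 (SE, adjusted p = 0.673, edgeR) that came to −0.062 once the length trend was removed. Counts of Igf2 per count of Igf2r were 5.31 and 4.49 in controls and 5.08 and 4.57 in Rest pKO, so the growth factor and its clearance receptor kept overlapping proportions. Grb10 (chromosome 11, 11830511 to 11938686, minus strand) varied little, at 533 and 547 CPM for the controls against 562 and 470 CPM for Rest pKO. Its log2 fold change of −0.065 ± 0.20 (SE, adjusted p = 0.919, edgeR) changed sign in other fits, with a 95% interval of fold from 0.687 to 1.33.

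Plagl1 carried the widest spread of the 10 genes. It encodes a zinc finger transcription factor known to activate other imprinted genes, Igf2 and H19 among them. The gene lies on the plus strand of chromosome 10 from 12810497 to 12851500 (mm9). Controls had 591 and 552 CPM, and the Rest pKO libraries 545 and 181 CPM. Rest pKO 1 thus lay next to the controls and Rest pKO 2 far below them. The mean was 572 ± 27.3 against 363 ± 257 CPM (SD, n = 2), a difference that did not pass the test (log2 fold change −0.65 ± 0.45 SE, adjusted p = 0.673, edgeR). The result rests on Rest pKO 2. Without it the log2 fold change was −0.065, and without Rest pKO 1 it was −1.65 and passed (adjusted p = 0.0289), where the lone library is assumed to vary as the controls do. Over all alternatives its adjusted p ran from 0.0289 to 1.00.

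Peg3, another zinc finger gene (chromosome 7, 6656603 to 6683132, minus strand, mm9), held close replicates, with 567 and 545 CPM for the controls against 490 and 455 CPM for Rest pKO. The groups did not overlap, yet the difference did not pass (log2 fold change −0.24 ± 0.19 SE, adjusted p = 0.714, edgeR), and it became 0.051 with the length trend removed, since Peg3 has 13314 bp of exon. Peg10, a gene derived from a retrotransposon and needed for the placenta (chromosome 6, 4697306 to 4710514, plus strand), was the lowest of the 10, at 164 and 137 CPM for the controls against 150 and 136 CPM for Rest pKO. Its groups overlapped (log2 fold change −0.072 ± 0.19 SE, adjusted p = 0.903, edgeR). Mest, which encodes a membrane protein of the hydrolase fold (chromosome 6, 30673547 to 30698457, plus strand), was the one gene with both Rest pKO libraries higher. It read 587 and 701 CPM for the controls against 727 and 719 CPM for Rest pKO, so the gap between the controls exceeded the gap between the genotype means (log2 fold change 0.17 ± 0.21 SE, adjusted p = 0.798, edgeR). The value was 0.042 without control 1 and 0.30 without control 2.

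Dlk1 encodes a transmembrane protein of the Notch ligand family that marks immature cells in several fetal organs. It was counted at 505 and 562 CPM for the controls against 326 and 480 CPM for Rest pKO. Rest pKO 1 was the low library, 1.47-fold under Rest pKO 2, which was close to control 1. The log2 fold change was −0.40 ± 0.24 (SE, adjusted p = 0.648, edgeR) with a 95% interval of fold from 0.511 to 1.12. Each Rest pKO library moved this value, to −0.15 without Rest pKO 1 and to −0.71 without Rest pKO 2, and it passed in neither case.

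Meg3, the maternally expressed long noncoding RNA next to Dlk1, had the lowest log2 fold change of the 10 genes. Controls had 1124 and 988 CPM and Rest pKO had 715 and 560 CPM, so the genotypes were separated by more than either pair of replicates. Averaged over each pair, this was 1056 ± 95.7 against 637 ± 110 CPM (SD, n = 2). The fold was 0.603 with a 95% interval from 0.419 to 0.869, and the log2 fold change was −0.73 ± 0.23 (SE). This was lower in both Rest pKO libraries but failed the correction (unadjusted p = 0.0132 and adjusted p = 0.460 in edgeR, adjusted p = 0.104 in DESeq2, and between 0.0739 and 0.951 over all alternatives). With the length trend removed it was −0.39 ± 0.20 (SE).

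H19, the maternally expressed long noncoding RNA next to Igf2, was the most abundant of the 10 and did not separate the genotypes. Controls had 3071 and 2132 CPM, on either side of the Rest pKO libraries at 2703 and 2508 CPM. The log2 fold change was 0.002 ± 0.26 (SE, adjusted p = 0.999, edgeR), with a 95% interval of fold from 0.662 to 1.51. Its direction turned on the controls, being 0.29 without control 1 and −0.24 without control 2. H19 carries a microRNA within its exons, whose mature arms (RefSeq, GRCm38.p6, chromosome 7, minus strand) are shown 5′ to 3′ with the seed, bases 2 to 8, in capitals.
mmu-miR-675-5p: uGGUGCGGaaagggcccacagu
mmu-miR-675-3p: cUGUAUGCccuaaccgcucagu
The seeds of both arms differ. The hairpin takes up 84 bp, or 3.54%, of the H19 exons, and its own row, Mir675, held 0 counts in every library, as did Mir770 and Mir1906-1 within Meg3 exons. How reads over both a hairpin and its host were assigned is not stated, so counts of 0 set no upper bound on hairpin reads. Mir483 and Mir335, which share no exon with Igf2 and Mest, held counts of 1 to 5 and of 0 to 11.

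Within the neighbouring pairs, the noncoding RNA was set against the coding gene in the same library. This removes the scaling between libraries but not their trend with exon length. H19 and Igf2 lie 72.6 kb apart on chromosome 7 (H19 from 149761434 to 149764048, Igf2 from 149836673 to 149852721, both on the minus strand, NCBI build 37, mm9). H19 took 64.6% of the counts of the pair in control 1 (95% Wilson interval 64.3% to 64.9%), 59.1% in control 2 (58.7% to 59.4%), 68.0% in Rest pKO 1 (67.7% to 68.3%) and 65.9% in Rest pKO 2 (65.6% to 66.3%). Both Rest pKO libraries thus gave H19 a larger share than both controls, with means of 67.0% ± 1.48 and 61.8% ± 3.90 (SD, n = 2). The difference was 5.15 percentage points (exact permutation test over 4 libraries, two-sided, p = 0.333, the smallest p this design allows), and the intervals cover counting error only. The controls differed by as much as the genotypes. H19 has 2372 bp of exon and Igf2 5493 bp. With the exon length trend removed, H19 and Igf2 read 3179 and 1646 CPM in control 1. Rest pKO 2 then had 2353 and 1353 CPM. On that scale Rest pKO 2 had less H19 per Igf2 than control 1, so the genotypes overlapped.

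Dlk1 and Meg3 lie 77.7 kb apart on the plus strand of chromosome 12 (Dlk1 from 110691033 to 110701546, Meg3 from 110779211 to 110809936). Meg3 took 69.0% (Wilson 95% interval 68.4% to 69.5%) and 63.8% (63.2% to 64.3%) of the pair in controls, and 68.7% (68.0% to 69.3%) and 53.8% (53.2% to 54.5%) in Rest pKO. Rest pKO 1 fell between the controls and Rest pKO 2 below them. The difference of −5.13 percentage points (exact permutation test, two-sided, p = 0.667) turned to 2.29 without Rest pKO 2. Rest pKO 1 was thus lower than the controls in both genes alike, and Rest pKO 2 more so in Meg3 than in Dlk1. With the exon length trend removed, Meg3 and Dlk1 read 740 and 323 CPM in Rest pKO 1. Control 1 then had 982 and 493 CPM, control 2 had 880 and 536 CPM and Rest pKO 2 had 685 and 504 CPM. On that scale Rest pKO 1 had more Meg3 per Dlk1 than either control, and Rest pKO 2 had less.

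**Figure D3:**
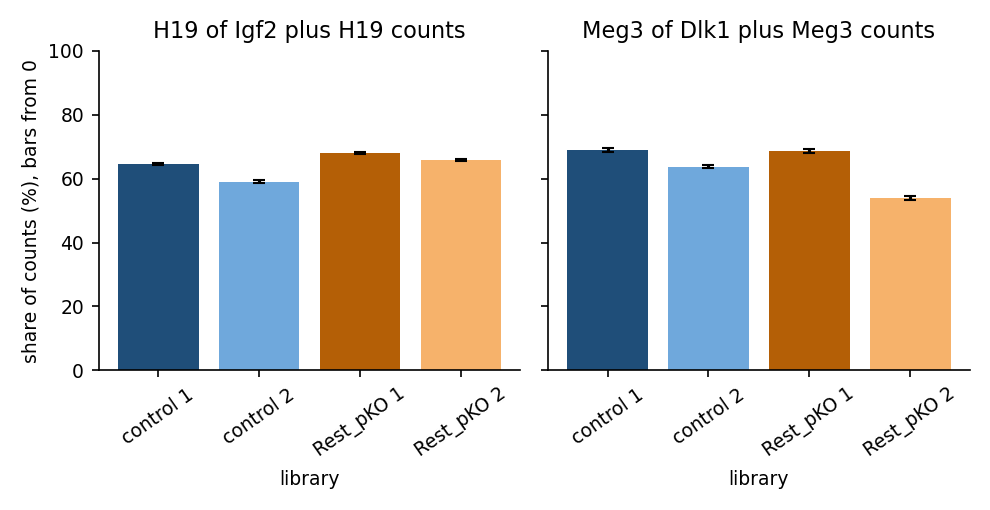
Share of counts (%, bars from 0) taken by H19 in the sum of Igf2 and H19 and by Meg3 in the sum of Dlk1 and Meg3, one bar per library, with 95% Wilson intervals as error bars. The H19 share is highest in both Rest pKO libraries (68.0% and 65.9%), and the Meg3 share stands apart in Rest pKO 2 (53.8%). Shares are of raw counts, with the exon length trend left in.

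The 10 genes did not share one profile. Rest pKO 2 held the lowest value of 5 genes (Meg3, Peg3, Plagl1, Grb10 and Peg10), Rest pKO 1 that of 3 (Igf2, Dlk1 and Igf2r), control 2 that of H19 and control 1 that of Mest. Control 1 held the highest value of 6 genes. By the root-mean-square distance of log2 deviations over the 4 libraries, the nearest of the 45 pairs were Igf2 and Peg3 (0.074) and Igf2 and Igf2r (0.10), and the farthest were Dlk1 and Plagl1 (0.79). The mean deviation of the 10 genes was 0.18 and 0.10 in controls and −0.049 and −0.23 in Rest pKO. Cdc42bpa, Pfkfb2, Capn6, Rreb1 and Nt5c3 had profiles nearest to that mean among 9191 other genes (distances 0.011 to 0.017), and 122 genes came within 0.05.

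Markers of other cells moved with some of these values. The 18 mesenchyme genes, all tested and none at 0 in any library, summed to 10824 and 9803 CPM in controls. In Rest pKO they summed to 5904 and 8954 CPM, and 15 of 18 had a log2 fold change below 0. Over all genes tested, 7355 of 14550 were below 0. The median of the mesenchyme genes was −0.46 (0 called by edgeR and by DESeq2), and −0.20 with the exon length trend removed. Their most abundant gene, the collagen gene Col3a1, read 3791 and 3444 CPM for the controls against 2136 and 3445 CPM for Rest pKO. Dlk1 and Igf2r, like Col3a1, were lowest in Rest pKO 1. The 6 mesothelium genes, none at 0, were likewise lowest in Rest pKO 1, with sums of 460 and 368 CPM for the controls against 202 and 318 CPM for Rest pKO, and all 6 had negative fold changes (median −0.75, 0 called by edgeR and 2 by DESeq2). The 11 tested leukocyte genes, none at 0, summed to 378 and 409 CPM for the controls against 215 and 309 CPM for Rest pKO, with 10 negative (median −0.29, 0 called by edgeR and 3 by DESeq2). Endothelium genes, none at 0, went the other way, 9 of 10 being positive (median 0.34, 0 called by edgeR and by DESeq2). Their sums were 486 and 633 CPM against 711 and 744 CPM. The 16 islet endocrine genes were all positive (median 0.73, 0 called by edgeR and 7 by DESeq2). They summed to 3420 and 2308 CPM against 5045 and 7112 CPM. The 5 tested erythroid genes were all negative (median −2.88, 0 called by edgeR and 1 by DESeq2). Those summed to 33.2 and 138 CPM against 22.2 and 21.5 CPM. Of the 23 tested acinar genes, 19 were positive (median 0.092, 0 called by edgeR and by DESeq2). Over all genes, edgeR called 0.0275% and DESeq2 called 0.716%. The part of any of these cell types in Dlk1, Igf2 and Igf2r was not tested.

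The 8 liver genes, all tested and none at 0, summed to 777 and 131 CPM in controls and to 277 and 272 CPM in Rest pKO, and Alb, the albumin gene, was at 343 and 10.1 CPM for the controls against 52.3 and 8.65 CPM for Rest pKO. Ttr, which islet cells also make, gave most of that sum outside control 1, with 117 CPM in control 2 and 187 and 258 CPM in Rest pKO 1 and 2. Control 1, the library with the most albumin, was also highest in 6 of the 10 genes (H19, Igf2, Peg10, Meg3, Peg3 and Plagl1) and lowest in Mest. The order did not hold among the other libraries, since Rest pKO 2 had the least albumin but more H19 (2508 CPM) than control 2 (2132 CPM), and control 2 was second to control 1 in Igf2. Liver tissue was not tested as a source of these counts.

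In Rest pKO 2 the low Plagl1 and Meg3 stood beside low counts of other long or nuclear RNAs. Malat1, a nuclear noncoding RNA, read 582 and 504 CPM for the controls against 426 and 131 CPM for Rest pKO. Kcnq1ot1, an imprinted antisense RNA, read 51.1 and 37.8 CPM and then 28.5 and 10.9 CPM. Xist was at 1940 CPM in the female control and 566 CPM in the female Rest pKO library. Neat1, another nuclear RNA, did not follow, with 310 and 419 CPM for the controls against 352 and 420 CPM for Rest pKO. Recovery of nuclear RNA in Rest pKO 2 was not tested.

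**Figure D4:**
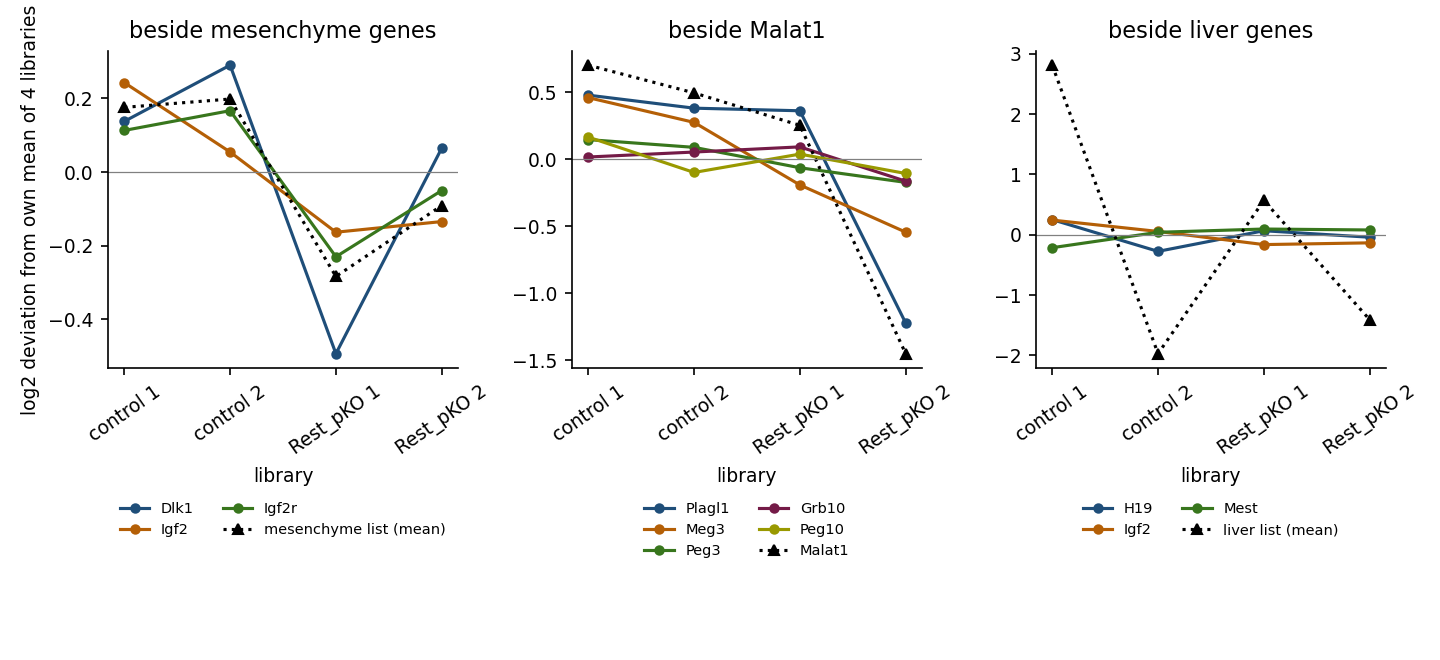
Log2 deviation of each gene from its own mean over the 4 libraries (points joined per gene, with a separate scale per panel), beside the mean of the 18 mesenchyme genes, Malat1, and the mean of the 8 liver genes (black triangles, dotted). Dlk1 dips in Rest pKO 1 to −0.49 as the mesenchyme genes do (−0.28), Plagl1 dips in Rest pKO 2 to −1.22 as Malat1 does, and H19 and Igf2 are highest in control 1, where the liver genes stand at 2.81.

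The genes around the 10 were then read. Rian, a noncoding RNA farther along the Dlk1 and Meg3 domain, was at 474 and 455 CPM for the controls against 516 and 306 CPM for Rest pKO (log2 fold change −0.18 ± 0.27 SE). Like Meg3 it was lowest in Rest pKO 2, but unlike Meg3 it was highest in Rest pKO 1. Mirg, in the same domain, had a log2 fold change of 0.014. Rtl1, the retrotransposon-like gene between Meg3 and Rian, read 11.4 and 9.94 CPM for the controls against 6.91 and 7.83 CPM for Rest pKO (log2 fold change −0.53 ± 0.23 SE, adjusted p = 0.568, edgeR).

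Airn, the paternally expressed RNA that overlaps Igf2r on the other strand and silences the paternal Igf2r copy, read 22.5 and 18.96 CPM for the controls against 12.3 and 10.7 CPM for Rest pKO. It had the smallest p of the 43 other imprinted genes, with a log2 fold change of −0.85 ± 0.21 (SE, adjusted p = 0.396 in edgeR and 0.193 in DESeq2). The annotation gives Airn and Igf2r no shared exon, but the strand setting of the counting is not stated, so Airn reads and intronic Igf2r reads cannot be told apart. Zim1, which lies beside Peg3, was at 135 and 120 CPM for the controls against 95.7 and 82.9 CPM for Rest pKO (log2 fold change −0.52 ± 0.18 SE, adjusted p = 0.495, edgeR).

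Ins2, the insulin gene next to Igf2, stood opposite to it, at 1008 and 735 CPM for the controls against 1417 and 2674 CPM for Rest pKO. Its log2 fold change of 1.23 ± 0.34 (SE) had an adjusted p of 0.424 in edgeR and 0.00776 in DESeq2. Sgce, the neighbour of Peg10, had a log2 fold change of 0.10 ± 0.19 (SE). Copg2 overlaps 904 bp, or 23.0%, of the Mest exons on the other strand and read 39.3 and 42.4 CPM for the controls against 47.1 and 45.3 CPM for Rest pKO, far below Mest. Without a stated strand setting, reads of Mest and Copg2 cannot be told apart in this stretch.

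A list of 46 other imprinted genes showed no common shift. Of the 43 tested, 24 had a log2 fold change above 0 and 19 below, with a median of 0.014, and edgeR and DESeq2 called 0. At an unadjusted p under 0.05, 2 were higher and 4 lower, against 3.26% and 5.61% of all genes. The higher ones were Peg13 (0.59 ± 0.18 SE) and Kcnq1 (0.44 ± 0.18), and the lower ones Airn, Zim1, Kcnq1ot1 (−1.17 ± 0.41) and Dcn (−0.64 ± 0.25), the last a collagen-binding proteoglycan of mesenchyme. Kcnq1ot1 alone passed with sex as a term in edgeR (adjusted p = 0.00149, against 0.495 without it). Within each sex that fit has a single library per genotype, so its p leans on variance shared across genes. Kcnq1ot1 read 51.1 CPM in the female control against 10.9 CPM in the female Rest pKO library. In the males it read 37.8 against 28.5 CPM.

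The IGF axis, a list of 18 genes, holds Igf1, receptors, receptor substrates and secreted binding proteins of the IGF system, the proteases Pappa and Pappa2, and Igf2bp1, Igf2bp2 and Igf2bp3, which bind mRNA rather than the growth factor. All 18 were tested, 15 fold changes were negative and 3 positive, beside 7355 negative of all 14550 genes, and the median was −0.32. With the length trend removed 14 were negative and 4 positive, and the median was −0.20. Igf1 and the Igf2bp genes, between −0.35 and −0.27 in the first fit, count among the 15. The main test called 0 of 18. The unadjusted p was under 0.05 for 2 higher and 3 lower genes, against 3.26% and 5.61% of all genes. Pappa, the protease that frees IGF from binding proteins, read 31.6 and 18.7 CPM for the controls against 11.6 and 10.8 CPM for Rest pKO (log2 fold change −1.16 ± 0.27 SE, adjusted p = 0.393 in edgeR, 0.0404 in DESeq2 and 0.0101 with sex as a term). Igfbp2 read 41.4 and 36.0 CPM for the controls against 8.86 and 24.5 CPM for Rest pKO (−1.21 ± 0.41 SE, adjusted p = 0.495 in edgeR, 0.112 in DESeq2 and 4.32e-04 with sex as a term). Among the other binding proteins, Igfbp5 (−0.65 ± 0.27 SE) and Igfbp6 (−0.71 ± 0.31) were lowest in Rest pKO 1, the library with the lowest mesenchyme sum, whereas Igfbp7 (0.52 ± 0.17) was higher in both Rest pKO libraries. Igfals, which encodes a partner of circulating IGF complexes, had a log2 fold change of 0.66 ± 0.27 (SE) at 4.82 to 8.65 CPM. These lists share the same 4 libraries with the 10 imprinted growth genes and were not tested as sets. As for Kcnq1ot1, the adjusted p of Pappa and Igfbp2 with sex as a term lean on variance shared across genes. Igfbp2 read 41.4 against 24.5 CPM in the females and 36.0 against 8.86 CPM in the males.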

How the data were processed

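Whole pancreas from E18.5 embryos was profiled by RNA-seq in 2 control and 2 Rest pKO libraries. The authors deposited whole-number counts per gene, made from 100-bp paired reads aligned to mm9 with STAR and assigned by featureCounts 1.5. Whether pairs were counted, and the strand setting, are not stated. Their methods give 3 pancreas per genotype. Groups and replicate numbers came from the labels. Totals per library were 16936759, 18644088, 20738162 and 24134100 counts.

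Genes were kept by filterByExpr and tested with edgeR 4.0.16 (TMM, quasi-likelihood, genotype alone, R 4.3.3) with Benjamini-Hochberg adjustment over 14550 genes at 0.05. CPM are TMM-scaled, and deviations use log2 CPM with a prior count of 2. An SE is the log2 fold change over the square root of F. Alternatives were DESeq2 1.42.0, limma-voom (limma 3.58.1), other scaling and filters, a replicate block, sex as a term, a lowess exon length correction (span 0.3), sex and length together (chosen after seeing the data), and each library left out. The difference between replicates 1 and 2 in controls and that in Rest pKO had a correlation of 0.048 across genes. Whether the numbers pair the libraries is not stated, and this value cannot settle it. Exon lengths (all annotated exons of a gene merged) and positions came from GENCODE vM1 by symbol. The paper counted reads on UCSC gene annotations of mm9, whose exon lengths can differ. The fit was tested on simulated data.

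The 10 genes and all lists were chosen with earlier results of these data known. Named genes were the 10, Rest, neighbours, up to 6 genes with the smallest p of each of the imprinted and IGF axis lists, the 5 nearest profiles with at least 10 CPM, and abundant markers. Malat1, Neat1 and Xist were chosen after their values were seen.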

Additional observations from a re-analysis of the deposited data

How the results depend on the processing

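The count of all genes called moved from 4 to 102 with DESeq2 (26 higher, 76 lower), to 247 with sex as a term (60 higher, 187 lower), to 240 with sex and the length correction together (added after seeing the data), and to between 1 and 514 when a library was left out (208 without control 1, 100 without control 2, 514 without Rest pKO 1, 1 without Rest pKO 2). None of the 10 imprinted growth genes was called in any of these fits except Plagl1 without Rest pKO 1 (0 to 1 called). Their median log2 fold change of −0.26 moved to −0.15 under TMM without acinar and erythroid genes, which shifted the median of all genes to 0.10, to −0.077 with the length trend removed, to −0.070 with sex and length together, and to between −0.26 and −0.12 when a library was left out, the highest without Rest pKO 2. In the other imprinted genes, 1 was called with sex as a term and 1 with sex and length, and 0 to 2 with a library left out. In the IGF axis, 1 was called with DESeq2, 2 with sex, 2 with sex and length, and 0 to 3 with a library left out, 3 without control 2.

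Signs turned in small log2 fold changes only, none of which passed a test. With the length trend removed H19 became −0.091, Peg3 0.051, Grb10 0.13 and Peg10 0.044, and with sex added to that fit −0.067, 0.050, 0.13 and 0.051. TMM without acinar and erythroid genes gave Grb10 0.034 and Peg10 0.029. With a library left out H19 ran from −0.24 to 0.29 (−0.049 without Rest pKO 1), Grb10 from −0.20 to 0.061 and Peg10 from −0.20 to 0.062 (0.0032 without Rest pKO 2). The difference in Meg3 share ran from −12.6 to 2.29 percentage points and that in H19 share from 2.39 to 7.91, and per kb of exon they were −4.57 and 3.53. Of 140 values of single genes under the alternatives, 124 kept their sign and side of the threshold. With the replicate block 4 genes were called in all and 0 of the 10, the log2 fold change of Meg3 was −0.74 (adjusted p = 0.339 in edgeR), and no other call changed. The causes of these moves were not tested. With 2 libraries per genotype, the 95% intervals of fold were wide and differed by gene. They ran from 0.309 to 1.31 in Plagl1, 0.804 to 1.57 in Mest and 0.703 to 1.29 in Peg10. In the fit of genotype alone, only that of Meg3 excluded 1 (0.419 to 0.869). For the other genes, changes inside the gene's own interval were not resolved.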

Other observations

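Other abundant imprinted genes, named here after their values were seen, differed in direction. Gnas, which encodes a stimulatory G protein subunit, read 1348 and 1267 CPM for the controls against 1564 and 1578 CPM for Rest pKO (log2 fold change 0.27 ± 0.21 SE, adjusted p = 0.701, edgeR), both Rest pKO libraries being higher. Cdkn1c, a cyclin-dependent kinase inhibitor that limits fetal growth, read 457 and 442 CPM for the controls against 352 and 317 CPM for Rest pKO (log2 fold change −0.43 ± 0.19 SE, adjusted p = 0.581, edgeR), both being lower. With the exon length trend removed, Gnas came to 0.52 (95% interval 0.033 to 1.002, adjusted p = 0.583, edgeR). Cdkn1c came to −0.54 (−1.001 to −0.075, adjusted p = 0.538, edgeR). Both intervals excluded 0 and neither gene passed the correction. That fit takes all annotated exons of a gene, merged, as its length, which may differ from the length of the transcript expressed. Nnat, a small membrane protein gene active in endocrine cells, read 95.7 and 70.5 CPM for the controls against 90.1 and 162 CPM for Rest pKO, overlapping between genotypes (log2 fold change 0.60 ± 0.30 SE, adjusted p = 0.614, edgeR).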
